A study of Mus musculus with 16 samples.

Results

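Hepatic progenitor cells, also called oval cells, are small cells of the bile ductules that expand when the liver is injured and can form hepatocytes and cholangiocytes. The results below describe how such cells from mice without Ptpn1, the gene of the tyrosine phosphatase PTP1B, changed their RNA after 8 h with 400 µM palmitic acid. The comparison used 8 of the 16 libraries of the series: 4 of Ptpn1-/- (knockout, KO) cells labelled control and 4 of Ptpn1-/- cells given palmitic acid. All 15239 genes that passed a filter on low values, of 55421 in the deposited table, were tested. The other 8 libraries, 4 control and 4 palmitate, came from Ptpn1+/+ (wild type, WT) cells and were used to ask where the KO response differed. The growth medium was DMEM containing 10% fetal bovine serum, whereas palmitic acid was supplied in DMEM containing 5% serum plus 1% bovine serum albumin. The medium of the control cells is not stated, so palmitate and a change of medium cannot be told apart. Nor do the labels say if the replicates came from separate cultures, and p-values therefore measure only the variation among the libraries at hand, which may be technical. The number of cell lines or mice behind each genotype is not given either, so effects of the genotype cannot be told apart from those of the line.

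Palmitate is the main saturated fatty acid of the circulation. In liver cells an excess of it is known to load the endoplasmic reticulum (ER) membrane, to activate the unfolded protein response (UPR) and the kinases that phosphorylate the translation factor eIF2α, and so to raise the transcription factors ATF4 and CHOP (gene Ddit3), which switch on amino acid supply and stress genes. Fatty acids also bind the PPAR nuclear receptors, which control fatty acid oxidation. PTP1B sits on the ER surface and removes phosphate from the insulin receptor and from JAK kinases.

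The 16 libraries held 21553952 to 35693442 reads assigned to genes, and the 8 KO libraries 21553952 to 29602393. Ptpn1 (ENSMUSG00000027540.13, chromosome 2, 167932057 to 167979385, GRCm38) stood at 327, 351, 328 and 312 normalized counts in the KO control libraries, or 17.0% of the WT level (exact permutation p = 0.0286, two-sided, the smallest that 4 against 4 libraries allow). The exons behind the remaining reads are not visible in a gene-level table. Among the 8 KO libraries the first principal component held 30.4% of the variance and separated control (-24.25 to -14.47) from palmitate (11.08 to 25.78), with palmitate library 1 nearest to the controls. Of the defining progenitor markers, Krt7, Krt19, Sox9, Spp1 and Onecut2 were expressed, while Epcam had 16 reads and Prom1 3 reads over the 8 KO libraries. The hepatocyte genes Alb, Ttr, Apob and Hnf4a were expressed as well, and Cps1 had 11 reads. Of macrophage and leukocyte markers, Adgre1 and Clec4f had 0 reads, while Csf1r had 5466, Cd68 605 and Ptprc 268. Of stellate cell and fibroblast markers, Lrat had 0 reads, while Col1a1 had 9256, Acta2 2369 and Pdgfrb 1914. Genes annotated as rRNA, mitochondrial rRNA or rRNA pseudogenes made up 0.081% to 0.086% of the values in KO control libraries and 0.101% to 0.107% in KO palmitate libraries. Mitochondrial mRNAs made up 3.391% to 3.718% and 3.93% to 4.22%. Neither share overlapped between the groups, and their part in the results that follow was not tested.

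Palmitate changed a large share of the transcriptome of KO cells, mostly by small amounts. With limma at an adjusted p under 0.05, 5960 of the 15239 genes were called (39.1%), 2845 higher (18.7%) and 3115 lower (20.4%). The median absolute log2 fold change of the called genes was 0.22. Changes of at least 2-fold were rarer and mostly upward: 108 genes rose that much (0.709%) and 51 fell (0.335%). The values of the 4 palmitate and 4 control libraries did not overlap for 5156 genes (33.8%), of which 4683 were also called (30.7% of all genes tested). Without palmitate library 1 the counts were 2941 higher and 3307 lower. For genes called without overlap and averaging at least 50 normalized counts, the 10 largest rises were led by genes of the amino acid stress response, namely Trib3, Slc7a11, Chac1 and Atf3. They were followed by the growth factor Areg, the cytokine Csf2, the ER-bound transcription factor Creb3l3, the lipase inhibitor Angptl4, the immediate-early gene Egr1 and the RNA-binding protein gene Arid5a. Among the 10 largest falls by the same rule, Cdc6, Ccne2, Ccne1, Ung and Rmi2 serve DNA replication, repair or entry into S phase. The others were the secreted peptide Apln, the chemokine Ppbp, the long noncoding RNA Mirt1, Slfn9 and the protease Plau (urokinase).

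**Figure D1:**
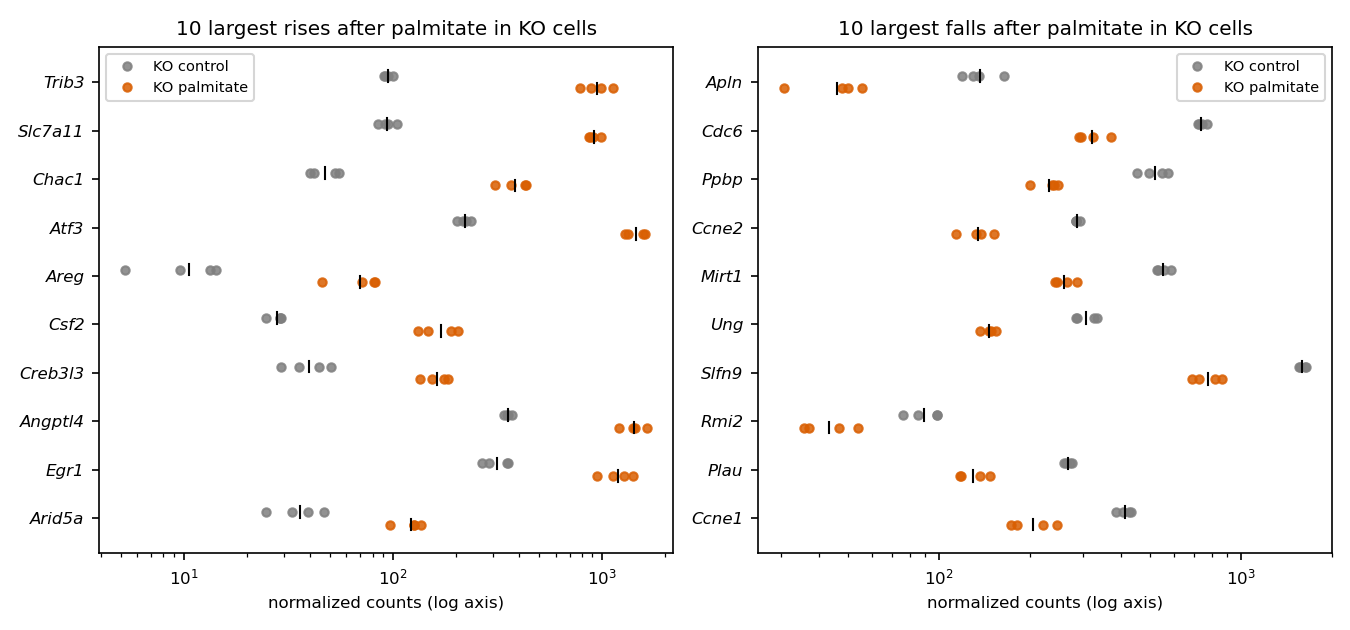
Normalized counts (log axis) of the 10 genes with the largest rises (left) and the 10 with the largest falls (right) in KO cells, chosen from genes called without overlap and averaging at least 50; each point is a library, grey for control and orange for palmitate, and black ticks mark group means (n = 4). The points of the 2 groups do not overlap for any of the 20 genes, which the choice of genes required.

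ATF4 and CHOP regulators and targets rose as a group. Of 20 listed genes 19 were tested, 14 rose and 1 fell, with a median log2 fold change of 0.61 beside 0.00 over all genes tested. Trib3 (ENSMUSG00000032715.9, chromosome 2, 152337422 to 152344032), a pseudokinase that restrains AKT and ATF4, stood at 94.4, 91.1, 92.1 and 101 normalized counts in the control libraries and at 783, 882, 994 and 1124 in the palmitate libraries. Every palmitate library lay above every control library, library 1 lowest, and the log2 fold change was 3.30 ± 0.08 (SE, n = 4 each, limma adjusted p = 6.59e-19). Chac1 (ENSMUSG00000027313.3, chromosome 2, 119351229 to 119354381), an enzyme that breaks down glutathione, rose from 42.0, 40.1, 52.6 and 55.1 to 307, 367, 428 and 435. Its groups did not overlap either, and the change was 2.99 ± 0.10 (SE, adjusted p = 1.33e-17). Atf3 (ENSMUSG00000026628.13, chromosome 1, 191170296 to 191218039), a stress-induced transcription factor, rose from 237, 225, 202 and 217 to 1287, 1338, 1565 and 1609, a change of 2.71 ± 0.06 (SE, adjusted p = 7.71e-22). The regulators themselves moved less. Atf5 rose by 1.25, Ddit3 by 1.06 and Atf4 by 0.71 on the log2 scale, and Ppp1r15a, a subunit of the eIF2α phosphatase, by 0.86. Nupr1 (0.97), Ddit4 (0.75), an inhibitor of mTORC1, and Sesn2 (0.61) were also called. Gdf15, a secreted stress hormone, did not pass the test, with control libraries from 2056 to 2288 and palmitate libraries from 2081 to 2293, and neither did Cebpb or Stc2. Nrg1, an EGF family ligand, was the member that fell, by 0.13.

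ATF4 and CHOP dimerize with C/EBP proteins on a composite element, searched here as TGATGNAA on both strands in the 250 bases before each gene's start (RefSeq, GRCm38.p6). It was found in 2.45% of the 10237 promoters of tested protein-coding genes that had a sequence, in 4 of 12 promoters of ATF4 and CHOP genes that rose and in 1 of 4 of those not called. Among genes that rose it was in 2 of 9 promoters of amino acid synthesis genes, 2 of 9 of amino acid transporters and 3 of 9 of tRNA synthetases. It was in 1 of 3 promoters of synthesis genes not called. Stretches around 5 matches from these 4 lists are shown because they lie in promoters of genes that lead the response or feed the amino acid pool. Capitals mark the element, in the gene's 5′ to 3′ direction, and a match is a description, not a shown binding site.
Slc7a11, chr3:50443652-50443699, minus strand: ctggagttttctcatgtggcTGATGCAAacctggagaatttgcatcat
Chac1, chr2:119351029-119351076, plus strand: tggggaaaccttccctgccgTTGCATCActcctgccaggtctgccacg
Atf3, chr1:191183416-191183463, minus strand: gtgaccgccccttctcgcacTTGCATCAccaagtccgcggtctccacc
Asns, chr6:7693210-7693252, minus strand: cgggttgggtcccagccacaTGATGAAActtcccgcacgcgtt
Aars, chr8:111033710-111033757, plus strand: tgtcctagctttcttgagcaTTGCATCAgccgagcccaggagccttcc
In Chac1, Atf3 and Aars the element reads on the opposite strand. The starts used for promoters are those of RefSeq. They can lie inside the gene spans printed in the text, which are from GENCODE, as for Atf3 and Hspa5. The Slc7a11 promoter held a further match on the opposite strand within the same stretch, beginning 47 bases before the start, after the one shown at 66 bases.

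Genes that supply amino acids followed. In the serine, one-carbon and amino acid synthesis list, 11 of 18 tested genes rose and 4 fell (median 0.30). Mthfd2, a mitochondrial folate enzyme, stood at 515, 560, 520 and 567 normalized counts in control and at 1153, 1252, 1430 and 1436 after palmitate. The groups did not overlap, and the log2 fold change was 1.28 ± 0.05 (SE, adjusted p = 7.49e-14). Aldh18a1 (1.18) and Pycr1 (0.86), which make proline, Asns (0.91), which makes asparagine, and Psph (0.86), the last step of serine synthesis, rose as well. The members that fell were Shmt1 (-0.65), Mthfd1 (-0.41), Tyms (-0.37) and Phgdh (-0.13). Shmt1, Mthfd1 and Tyms carry the cytosolic folate cycle that feeds thymidylate synthesis. Of 19 tested amino acid transporters 10 rose and 1 fell (median 0.18). Slc7a11 (ENSMUSG00000027737.10, chromosome 3, 49892526 to 50443614), the cystine importer subunit, rose from 94.4, 85.1, 92.1 and 104 to 869, 879, 995 and 910. The groups lay far apart, and the change was 3.27 ± 0.07 (SE, adjusted p = 1.03e-23). Slc1a4 (1.67), a neutral amino acid carrier, Slc6a9 (1.27), a glycine carrier, and Slc7a5 (0.67), a leucine exchanger, came next, while Slc7a6 fell (-0.17). Cytosolic aminoacyl-tRNA synthetases, which charge tRNAs, rose for 14 of 20 and fell for 4 (median 0.20). Aars rose from 7091, 7149, 7402 and 7212 to 9582, 10027, 10187 and 10052, without overlap, a change of 0.47 ± 0.02 (SE, adjusted p = 1.59e-14). Yars and Cars rose by 0.43 each, and Vars (-0.22), Hars (-0.15), Kars (-0.15) and Farsa (-0.09) fell.

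The ER stress response also rose broadly. Of 33 tested genes for UPR sensors, ER chaperones and ER-associated degradation (ERAD), 29 rose and 2 fell (median 0.27). Creb3l3 (ENSMUSG00000035041.8, chromosome 10, 81084324 to 81098874), a liver transcription factor cleaved from the ER membrane that controls fasting lipid genes, rose from 35.4, 29.2, 44.3 and 50.3 normalized counts to 134, 176, 155 and 183. The groups did not overlap, and the change was 2.02 ± 0.25 (SE, adjusted p = 2.37e-07). Hspa5 (ENSMUSG00000026864.13, chromosome 2, 34771970 to 34777547), the ER chaperone BiP, rose from 12932, 12689, 13383 and 13668 to 18423, 18903, 19705 and 20196. Here too all palmitate libraries were above all controls, by 0.55 ± 0.03 (SE, adjusted p = 2.17e-14). Herpud1 (0.61), an ERAD component, Xbp1 (0.51), the factor activated by IRE1 splicing, and Ero1l (0.48), an ER oxidase, rose in the same range. The sensors Ern1 (IRE1, 0.35) and Atf6 (0.31) rose, while the sensor Eif2ak3 (PERK) stood at 2429 in control and 2355 after palmitate and was not called. Atf6b (-0.16) and the reductase Dnajc10 (-0.23) fell. Cytosolic and mitochondrial heat shock genes did not move as a group, with 5 of 21 higher and 8 lower (median -0.04). Over all genes tested the shares were 18.7% higher and 20.4% lower. Hspa1a rose by 0.70 without overlap of the groups, and Hspa1b by 0.44 with overlap. Lonp1, a mitochondrial protease, rose by 0.38, and Hspb1 fell by 0.43. Hsp90aa1 fell by 0.19.

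Promoters of ER chaperones carry the ER stress element, bound by NF-Y with ATF6 or XBP1. It was searched as CCAAT and CCACG with 9 bases of any kind between them, on both strands, and found in 15 of the 10237 promoters (0.147%). Of the 23 promoters of ER genes that rose and had a sequence, 8 held it. Those of 4 abundant chaperones are shown, with the element in capitals (RefSeq, GRCm38.p6).
Hspa5, chr2:34772005-34772063, plus strand: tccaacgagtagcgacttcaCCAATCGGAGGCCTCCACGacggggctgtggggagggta
Hsp90b1, chr10:86705618-86705676, minus strand: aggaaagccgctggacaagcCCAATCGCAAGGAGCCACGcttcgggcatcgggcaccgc
Calr, chr8:84847055-84847113, minus strand: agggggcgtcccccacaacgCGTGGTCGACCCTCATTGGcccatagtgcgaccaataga
Pdia6, chr12:17266471-17266529, plus strand: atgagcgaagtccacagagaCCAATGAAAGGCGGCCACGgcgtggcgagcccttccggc
In Calr the element reads on the opposite strand. The mRNAs of Hsp90b1, Calr and Pdia6 rose by 0.27, 0.27 and 0.29 on the log2 scale, about as much as the list's median.

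Fasting and PPAR-responsive genes rose for 12 of 22 tested genes and fell for 1 (median 0.25), and 5 rose at least 2-fold, not all of which are reported here by name. Angptl4 (ENSMUSG00000002289.16, chromosome 17, 33773750 to 33781830), a secreted inhibitor of lipoprotein lipase, rose from 370, 339, 353 and 356 normalized counts to 1203, 1404, 1443 and 1643. All palmitate libraries stood above all controls, and the change was 1.99 ± 0.07 (SE, adjusted p = 4.83e-14). Pdk4 (1.10), which shuts pyruvate out of oxidation, Acot2 (1.03) and Acot1 (0.98), neighbouring acyl-CoA thioesterases of similar sequence whose reads may be shared, and Plin2 (0.66), a lipid droplet coat protein, rose too. The coactivator Ppargc1a fell by 0.14. Cd36, the fatty acid translocase, stood at 16.9 and 16.3 and was not called. Mitochondrial fatty acid oxidation genes rose for 12 of 22 and fell for 1 (median 0.11). Cpt1a (ENSMUSG00000024900.5, chromosome 19, 3322334 to 3385733), which admits fatty acids to mitochondria, rose from 12709, 12806, 12561 and 12886 to 20343, 20376, 20588 and 19598. The libraries within each group lay close together, and the change was 0.67 ± 0.03 (SE, adjusted p = 1.73e-16). The carnitine carrier Slc25a20 rose by 0.61, while Hadha, Hadhb and Acat1 stayed within 0.04 and were not called. A PPAR element, searched on both strands as AGGNCA in a direct repeat with 1 base between the copies, was in 0.322% of all promoters and in 0 of 10 promoters of fasting and PPAR genes that rose, in this window of 250 bases.

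Lipid synthesis genes rose in the same cells. Cholesterol synthesis and uptake genes, controlled by SREBP2, rose for 25 of 27 and fell for 1 (median 0.42). Insig1 (ENSMUSG00000045294.11, chromosome 5, 28071363 to 28078662), which holds SREBP in the ER, rose from 2358, 2394, 2397 and 2278 normalized counts to 4821, 4532, 4689 and 4736. The groups did not overlap, with a change of 0.99 ± 0.03 (SE, adjusted p = 4.39e-21). The mevalonate enzymes Pmvk (0.87) and Mvd (0.85) and the lanosterol synthase Lss (0.86) also rose, and Scap was not called. A sterol regulatory element, searched as TCACNCCAC on both strands, was in 1.24% of the 10237 promoters and in 1 of 18 promoters of cholesterol genes that rose. In fatty acid synthesis and desaturation, 12 of 19 rose and 2 fell (median 0.16). Scd2, a stearoyl-CoA desaturase that makes monounsaturated from saturated acyl chains, rose from 82116, 84508, 82210 and 83700 to 145047, 149792, 148975 and 149125. Its groups lay apart by far more than their spread, with a change of 0.83 ± 0.02 (SE, adjusted p = 6.39e-21). Scd1 (0.80), Fads2 (0.51) and Fads1 (0.44) rose as well, and so did Acacb (1.07) and Acss2 (0.98). The 2 that fell were Acaca (-0.12) and Fasn (-0.15), the enzymes that make palmitate itself. Triglyceride and lipid droplet genes rose for 14 of 25 and fell for 3 (median 0.12). Pnpla3 rose from 23.61, 12.15, 11.96 and 18.05 to 49.85, 61.94, 50.04 and 58.52, and the phosphatidate phosphatase Lpin1 rose by 0.81. Of 14 tested fatty acid uptake and activation genes 4 rose and 3 fell, beside 18.7% and 20.4% over all genes. The acyl-CoA synthetase Acsl3 stood at 0.69 and the binding protein Fabp5 at -0.41. Ceramide and sphingolipid enzymes rose for 6 and fell for 7 of 25 (median -0.01), near the 18.7% and 20.4% over all genes. Ugcg (-0.55), which makes glucosylceramide, Kdsr (-0.43), Cers5 (-0.37), Sptlc1 (-0.33) and Sptlc2 (-0.27), which with Kdsr begin ceramide synthesis from palmitoyl-CoA, fell. Ormdl3, an inhibitor of that first step, rose by 0.29. These genes are examples, and with 6 higher and 7 lower the list as a whole did not move in 1 direction.

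**Figure D2:**
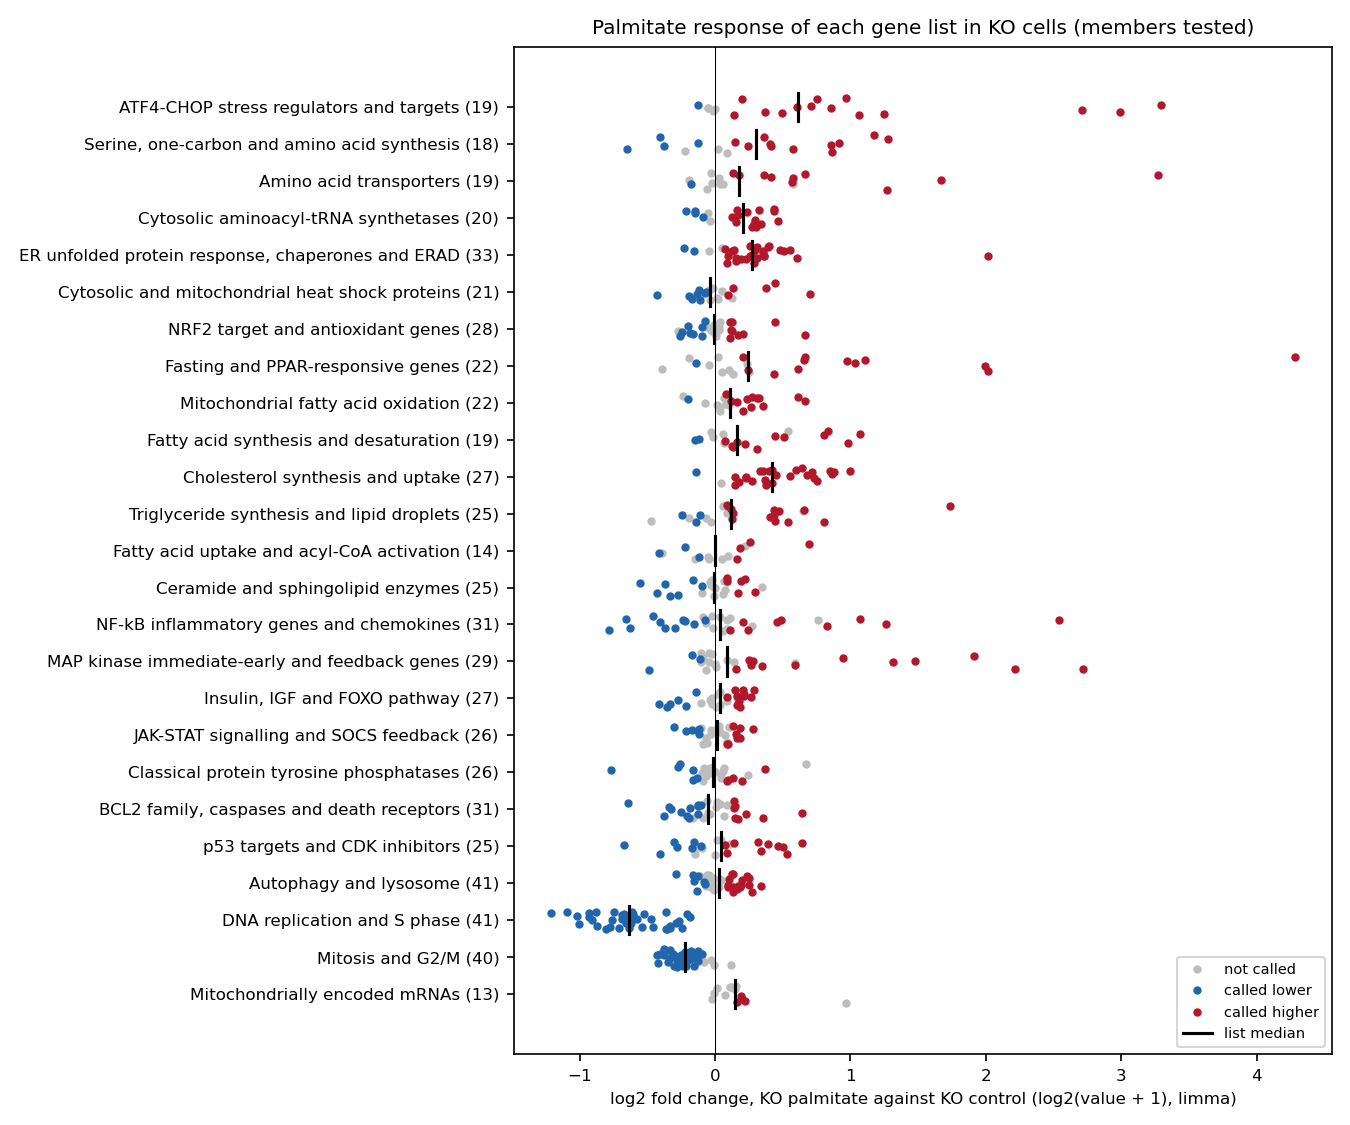
Log2 fold change of KO palmitate against KO control (horizontal axis, limma on log2(value + 1)) for each tested member of 25 gene lists (number tested in brackets). Red and blue points were called higher and lower, grey points were not called, and black bars mark list medians, which run from -0.64 for DNA replication to 0.61 for ATF4 and CHOP genes.

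Signalling and inflammatory genes moved in both directions, beside shares of 18.7% higher and 20.4% lower over all genes tested. Of 29 immediate-early and feedback genes of MAP kinase signalling 12 rose and 3 fell (median 0.09). Egr1 rose from 289, 267, 355 and 351 normalized counts to 946, 1130, 1416 and 1281, a change of 1.91 ± 0.12 (SE, adjusted p = 4.61e-08). No palmitate library reached down to the controls. The feedback inhibitors Spry4 (0.95) and Dusp8 (0.59) rose, whereas Dusp6 stood at 2046 and 2047 and was not called, and Etv4 fell by 0.49. Areg, an EGF receptor ligand, rose from 5.25, 13.4, 9.57 and 14.2 to 71.2, 45.6, 82.3 and 80.8, a change of 2.66 ± 0.26 (SE, adjusted p = 7.88e-09). Its control level was low, and the groups did not overlap. In the NF-kB list 9 of 31 genes rose and 11 fell. Csf2 (GM-CSF) rose from 28.9, 29.2, 28.7 and 24.7 to 132, 148, 206 and 190, a change of 2.54 ± 0.15 (SE, adjusted p = 1.03e-13). The palmitate libraries spread more than the controls and lay above all of them. Nos2 (1.26), Ptgs2 (1.07), which makes prostaglandins, Cxcl10 (0.83) and Cxcl1 (0.46) rose. Several chemokines fell instead. Ccl20 (ENSMUSG00000026166.14, chromosome 1, 83116766 to 83119167) stood at 3620, 3451, 3371 and 3233 in control and at 2114, 1769, 1984 and 2087 after palmitate. The groups did not overlap, and the change was -0.78 ± 0.07 (SE, adjusted p = 4.45e-07). Ccl7 (-0.66), the macrophage growth factor Csf1 (-0.63), Cx3cl1 (-0.46) and Ccl2 (-0.41) fell, and so did the NF-kB feedback genes Tnfaip3 (-0.37) and Nfkbie (-0.16). Summed macrophage and leukocyte markers stood at 2733.5 to 2918.4 normalized counts in control and 2987.1 to 3387.0 after palmitate. Of the 5 of 14 such markers tested 1, Csf1r, rose, while Adgre1 and Clec4f had 0 reads. Their part in the change of inflammatory genes was not tested.

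NRF2 target and antioxidant genes rose for 9 and fell for 8 of 28, with a median of -0.01, beside 18.7% and 20.4% over all genes. Hmox1, which degrades heme, rose from 2692, 2609, 2566 and 2407 normalized counts to 4781, 3580, 3978 and 3981, by 0.66 ± 0.07 (SE, adjusted p = 4.23e-06). Palmitate library 1 was the highest there, and the groups did not overlap. Srxn1 (0.44) and Ephx1 (0.21) rose, and Prdx6 (-0.26), G6pdx (-0.24), Txn1 (-0.20) and Gsta4 (-0.19) fell. The glutathione synthesis genes Gclc and Gclm, at 0.03 and 0.04, were not called. An antioxidant response element, searched as TGACNNNGC on both strands, was in 13.9% of all promoters, in 1 of 8 promoters of listed genes that rose, 3 of 5 that fell and 3 of 9 not called.

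DNA replication genes fell without exception: all 41 tested members of the S phase list were called lower, with a median of -0.64, and none rose. Cdc6 (ENSMUSG00000017499.15, chromosome 11, 98907801 to 98923940), which loads the replicative helicase, fell from 717, 769, 745 and 724 normalized counts to 371, 294, 290 and 324. Palmitate library 1 was the least reduced, the groups did not overlap, and the change was -1.21 ± 0.07 (SE, adjusted p = 5.99e-13). The cyclins Ccne2 (-1.09) and Ccne1 (-1.02), which start S phase, Uhrf1 (4357 to 2177), which passes on DNA methylation, and the DNA ligase Lig1 (-0.88) followed. Mcm2, a helicase subunit, fell from 4192, 4138, 4198 and 4158 to 2470, 2184, 2045 and 2211, by 0.91 ± 0.04 on the log2 scale (SE, adjusted p = 9.39e-14). The other 5 helicase subunits fell by 0.64 (Mcm7) to 0.93 (Mcm3). The smallest falls were those of Prim2 (-0.18) and Gins4 (-0.21). Mitosis and G2/M genes fell less, with 35 of 40 lower, none higher and a median of -0.22. Nuf2 (-0.43), a kinetochore protein, Ect2 (-0.42) and Cdk1 (-0.41) led, while Cenpe, Hmmr, Cenpa, Cks2 and Cdc25c were not called. In bulk RNA a smaller share of cells in S phase and less RNA per cell cannot be told apart. Of the CDK inhibitors, Cdkn1b (0.32) and Cdkn2b (0.46) rose, while Cdkn1a (p21) stood at 4754 and 4897 and Cdkn2a at 382 and 402, and neither was called.

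E2F factors switch on S phase genes through an element searched as TTTNGCGC on both strands. It was found in 2.32% of the 10237 promoters and in 6 of 32 promoters of S phase genes that fell. The 2 shown belong to helicase subunits, with the element in capitals (RefSeq, GRCm38.p6), and the Mcm5 and Mcm6 mRNAs fell by 0.93 and 0.68.
Mcm5, chr8:75109336-75109383, plus strand: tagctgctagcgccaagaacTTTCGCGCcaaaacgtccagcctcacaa
Mcm6, chr1:128359725-128359772, minus strand: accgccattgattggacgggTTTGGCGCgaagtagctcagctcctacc

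Cell death, p53, autophagy and signalling genes moved in both directions. Among 31 BCL2 family, caspase and death receptor genes 8 rose and 12 fell. The BH3-only genes Bmf (0.64), Bbc3 (PUMA, 0.35) and Bad (0.23) rose, the BAX-like Bok fell (-0.64), and the survival genes Birc5 (-0.38), Bcl2l1 (-0.34) and Mcl1 (-0.13) fell. The p53 list had 10 of 25 higher and 7 lower. Gadd45a (0.64), Plk3 (0.53) and Trp53inp1 (0.50) rose, and Gadd45g (-0.67), Gadd45b (-0.41) and Trp53 itself (-0.30) fell. Of 41 autophagy and lysosome genes 17 rose and 7 fell, led by the cargo receptor Sqstm1 (0.34) upward and Atg7 (-0.29) downward. In the insulin, IGF and FOXO list 11 of 27 rose and 6 fell. The insulin receptor Insr (0.17) and the transcription factors Foxo1 (0.18) and Foxo3 (0.21) rose, and Igf1r (-0.36) and Irs2 (-0.28) fell. JAK and STAT genes rose for 8 and fell for 6 of 26, with Socs6 at 0.28 and Socs3, a feedback inhibitor of cytokine receptors, at -0.30. Among 26 classical tyrosine phosphatases 5 rose and 6 fell. Ptprm rose by 0.37, Ptprb fell by 0.27, and Ptpn2, the closest relative of Ptpn1, stood at 904 and 905 and was not called. Over all genes tested the shares were 18.7% higher and 20.4% lower.

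Markers of cell identity shifted modestly, beside shares of 18.7% higher and 20.4% lower over all genes tested. Progenitor and cholangiocyte markers rose for 5 and fell for 9 of 19. Cd24a (-0.44), the keratin Krt7 (-0.42), Krt18 (-0.30) and Krt8 (-0.27) fell, while the Wnt target Lgr5 (0.67), Onecut2 (0.40), Krt19 (0.23) and Sox9 (0.21) rose. Of 12 tested hepatocyte markers, 3 rose (Ttr 0.64, Fgb 0.34, Hp 0.26) and 2 fell (Ass1 -0.41, Serpina1e -0.29), counts near those shares. The sum of hepatocyte markers over the list was 63829.8 to 67176.3 normalized counts in control and 71252.9 to 75760.8 after palmitate, without overlap, with Cps1 near 0. Its part in the changes of fasting and lipid genes was not tested. Of 6 endothelial markers none was called, and of 13 stellate cell and fibroblast markers 1 rose and 2, Tagln (-0.56) and Acta2 (-0.44), fell. The summed stellate cell markers overlapped (2990.6 to 4178.7 and 3091.5 to 3376.8). Mitochondrially encoded mRNAs rose for 4 of 13 and fell for none, led by mt-Co1 at 0.22. The calls of mt-Co1 and mt-Nd4 were lost after quantile normalization (adjusted p = 0.302 and 0.551), and such genes share reads with nuclear copies.

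The WT cells, whose libraries are not shared with the KO comparison, were used to ask which changes differed between the genotypes. In WT, 5734 genes were called (37.6%), of which 2702 rose (17.7%) and 3032 fell (19.9%). Of the 2845 genes that rose in KO cells, 1564 (55.0%) also rose in WT and 49 fell, and of the 3115 that fell in KO, 2000 (64.2%) also fell and 106 rose. A test of the difference itself, the limma interaction, called 1508 genes (9.9%), 638 with a higher (4.19%) and 870 with a lower (5.71%) response in KO. After rescaling all libraries to the same total this split was 489 and 1141. The control cells of the genotypes also differed in markers of other cell types. Col1a1 stood at 1300 in KO and 62290 in WT control, Acta2 at 375 and 9219, and the hepatocyte genes Alb at 3638 and 1.43 and Apob at 26710 and 439. Their part in the differences that follow was not tested.

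**Figure D3:**
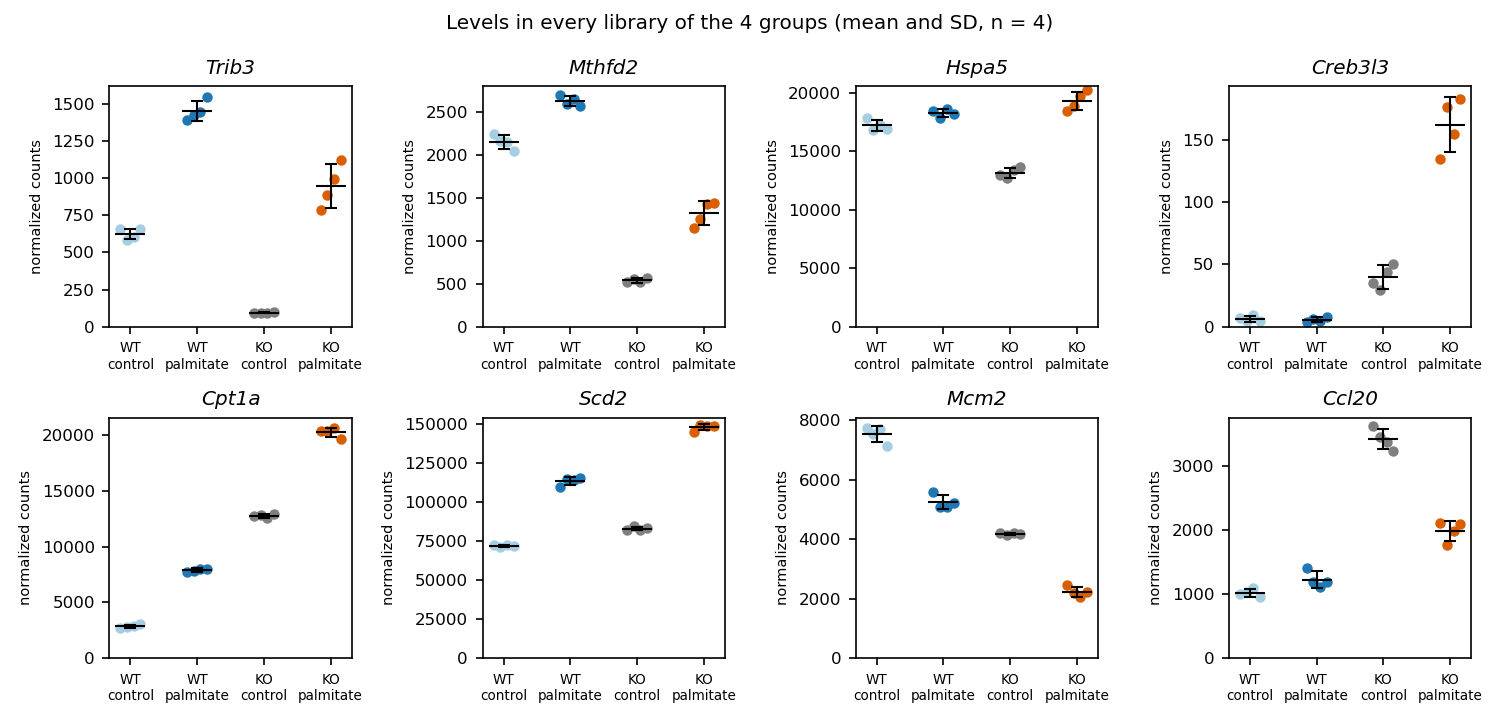
Normalized counts of 8 genes in every library of the 4 groups (points; blue WT, grey and orange KO), with group means and SD (n = 4). Trib3 rises from a lower level in KO than in WT, Creb3l3 stands near 0 in both WT groups, Cpt1a starts higher in KO, and Ccl20 falls in KO while it rises in WT.

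Stress lists differed between the genotypes to unequal degrees. Over all genes tested the difference was called higher for 4.19% and lower for 5.71%. Among ATF4 and CHOP genes, of which 15 of 19 rose in WT too, the difference was called higher for 7 and lower for 3 (median 0.04). Among amino acid transporters it was higher for 6 and lower for 2 of 19. Among heat shock genes it was higher for 2 and lower for 1 of 21, near the shares over all genes. Among amino acid synthesis genes it was higher for 8 and lower for 2 of 18, among tRNA synthetases for 11 and 0 of 20, and among ER genes for 15 and 1 of 33. Trib3 rose by 3.30 in KO and by 1.22 in WT, a difference of 2.08 ± 0.11 (SE, limma adjusted p = 3.97e-11). Its levels were nevertheless lower in KO, at 94.6 against 624 in control and 946 against 1451 after palmitate. The same held for Chac1 (difference 1.73 ± 0.14, adjusted p = 1.19e-08) and for Mthfd2 (0.99 ± 0.08, adjusted p = 3.76e-08), which stood at 541 in KO and 2147 in WT control and reached 1318 and 2620. Hspa5 rose by 0.55 in KO and by 0.09 in WT (difference 0.46 ± 0.04, adjusted p = 2.75e-08). It ended at 19310 ± 794 in KO and 18290 in WT from 13170 and 17200. Creb3l3 rose in KO and stood at -0.09 in WT, where it was not called (difference 2.11 ± 0.35, adjusted p = 0.000213). Gdf15, not called in KO, rose by 0.30 in WT (difference -0.31 ± 0.06, adjusted p = 0.000551).

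**Figure D4:**
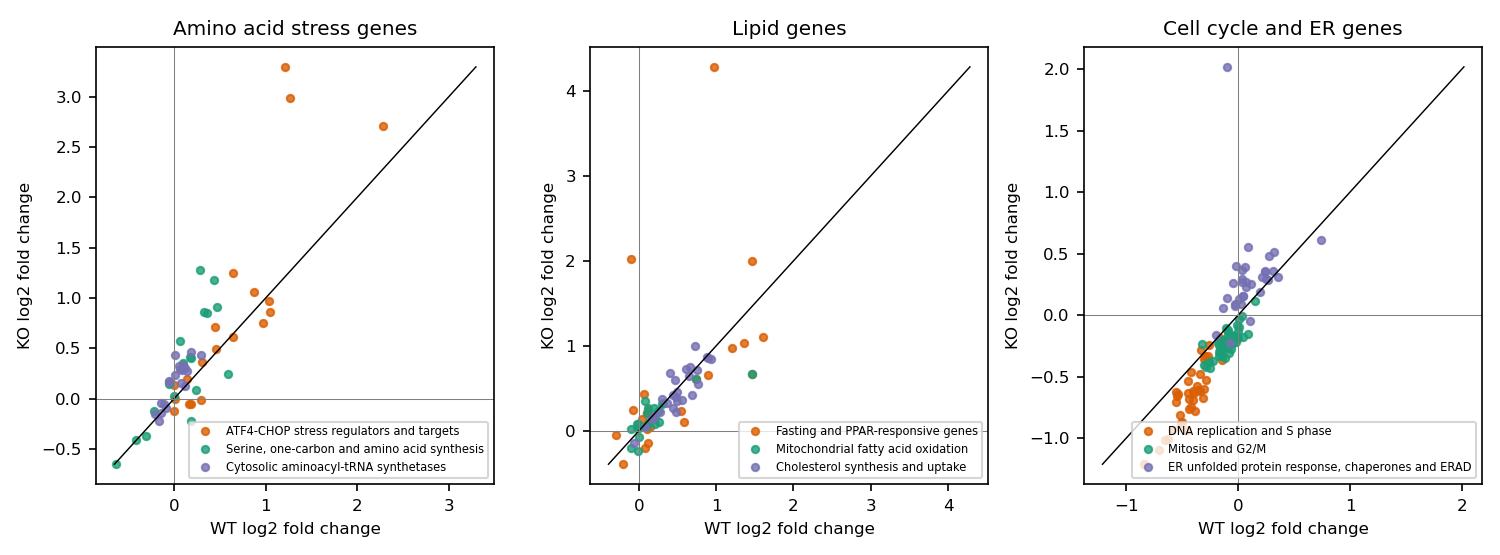
Log2 fold change after palmitate in WT (horizontal) and KO (vertical) for members of 9 gene lists, with the line of equal change. ER genes and tRNA synthetases lie mostly above the line, S phase genes mostly below it, and ATF4 and CHOP genes on both sides of it.

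Lipid lists varied in how many differences were called, beside 4.19% higher and 5.71% lower over all genes tested. Fasting and PPAR-responsive genes had 4 differences called higher and 5 lower of 22. Triglyceride and lipid droplet genes had 1 and 6 of 25, and fatty acid synthesis and desaturation genes 2 and 3 of 19. Cholesterol synthesis genes, with 26 of 27 higher in WT (median 0.48), had 3 differences called higher and 4 lower, and fatty acid oxidation genes had 0 and 1. That 1 was Cpt1a, which rose by 1.46 in WT and 0.67 in KO (difference -0.80 ± 0.04, adjusted p = 1.85e-13), from 2867 in WT and 12740 in KO control. Pdk4 (-0.51) and Plin2 (-0.24) also rose less in KO on the log2 scale, though from higher levels and to higher levels than in WT. Pdk4 went from 456 to 981 in KO and from 202 to 618 in WT. Plin2 went from 5718 to 9019 in KO and from 2682 to 4984 in WT. NRF2 and antioxidant genes rose for 17 and fell for 3 of 28 in WT, and their difference was called lower for 12 and higher for 0, among them Gsta4 (-0.64 ± 0.07, adjusted p = 1.66e-06), G6pdx (-0.42) and Gclc. Among NF-kB genes the difference was higher for 7 and lower for 10 of 31. Nos2 (0.83), Cxcl10 (0.67) and Ptgs2 (0.57) rose more in KO on the log2 scale. Ccl20 fell in KO but rose by 0.26 in WT (difference -1.04 ± 0.10, limma adjusted p = 1.41e-05). S phase genes were lower for 41 of 41 in WT too (median -0.40), and the fall was deeper in KO for 22 and shallower for none. Mcm2 fell by 0.52 in WT, a difference of -0.39 ± 0.06 (SE, adjusted p = 0.00018). Mitosis genes had 15 of 40 differences lower and 0 higher.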

How the data were processed

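The authors deposited a table of linear signal values, named as normalized counts, for 55421 genes and 16 libraries. The submitters' processing notes name STAR, RSEM, DESeq2 and limma, without role or version. Build, annotation and strandedness of counting were not given in the sources used here. Without the strand setting, reads of a gene and of an overlapping or antisense partner cannot be told apart. Per the labels' protocols, rRNA was depleted, libraries were prepared by the KAPA RNA HyperPrep chemistry, and paired ends of 76 bases were read by a HiSeq2000. Those protocols speak of fixed-tissue RNA of low quality, although the samples are cultured cells.

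Every value above 0 was a whole multiple of a step within 0.1 read (100% of values), which makes each deposited value a read number over the library's size factor. Reads recovered in this way were used for depth, for edgeR and for DESeq2. Identifiers were matched to GENCODE vM21 (GRCm38), 54673 with their version and 55240 without, for coordinates. Of the symbols, 113 had more than 1 entry and were kept apart by identifier.

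Values were tested as log2(value + 1) for the 15239 genes with at least 10 in at least 4 libraries. A limma 3.58.1 model (R 4.3.3) of 4 group means over 16 libraries, with trend and robust settings, gave every fold change and SE, and p-values were adjusted by Benjamini-Hochberg over all genes tested, two-sided. These fold changes understate the change of low genes. In simulated data of 15239 genes, 83 were changed 1.5-fold, 60 were changed 2-fold and 57 were changed 4-fold. The limma model recovered 74.7%, 78.3% and 93% of them and called 16 unchanged genes. Far fewer genes changed there than the 5960 called here, so these rates need not carry over. Smaller changes, which most called genes had, were not simulated. Lists are described by counts and medians, with no set test. Alternatives were a pseudocount of 5, no filter, a common total, TMM, quantile normalization, edgeR 4.0.16, DESeq2 1.42.0, a replicate block, the 8 KO libraries alone and leaving out each library. Replicate numbers did not pair the samples (correlations of same-numbered KO libraries -0.053 to -0.006). The gene lists, motifs and the rule for named genes were chosen with earlier results of these data known. The rule took Ptpn1, the 10 largest called rises and falls with a mean of at least 50 and no overlap, up to 3 called genes per list and the 5 highest and lowest differences. Other list members are named as examples of their group, chosen after their values were seen. Some members of the lists are counted but not reported here by name.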

Additional observations from a re-analysis of the deposited data

Results flagged for a closer look

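Single KO libraries were flagged for 11 of the 100 named genes by Dixon's test in groups of 4. Control and palmitate libraries formed separate groups, and chance marks about 1 in 20 groups. About as many flags as were found are therefore due by chance. The statistic is the gap to the nearest library divided by the group's range. In control, it was 0.899 for Csf2 (library 4 at 24.7 normalized counts against 28.7 to 29.2), 0.972 for Ccne2 (library 3 highest at 293), 0.845 for Srxn1 and 0.888 for Acsl3 (library 3 lowest in both), and 0.853 for Fgb (library 1 lowest at 2890). Palmitate library 1 was lowest for Aldh18a1 (0.88, at 1778 against 2070 to 2110), for Hspa1b (0.877, at 642 against 932 to 972) and for Lss (0.931, at 3064). It was highest for Cd24a (0.839) and Ass1 (0.839). Ednra had its only palmitate read in library 4 (1.0). Hspa1a and Hspa1b are near-identical copies whose reads may be split at random.

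For the 49 genes listed here, from the 100 named genes, the interaction called a different response in KO and WT cells. Over all genes tested it called 9.9%. The naming rule took some genes for the size of this difference and most others for their KO change. The count therefore does not measure how common such differences are. The log2 difference, KO minus WT, was higher for the stress and amino acid genes Trib3 (2.08), Chac1 (1.73), Slc7a11 (1.15), Slc1a4 (1.01), Mthfd2 (0.99), Aldh18a1 (0.74), Slc6a9 (0.55), Asns (0.44), Atf3 (0.42), Yars (0.42) and Aars (0.28). It was higher too for the ER genes Creb3l3 (2.11) and Hspa5 (0.46), for the inflammatory and signalling genes Egr2 (1.59), Nos2 (0.83), Spry4 (0.75), Dusp8 (0.74), Ptgs2 (0.57) and Socs6 (0.17), and for Adm2 (2.22), an adrenomedullin family peptide, and Arid5a (0.89). Lipid and hepatocyte genes with a higher response were Angptl4 (0.53), Fgb (0.4), Insig1 (0.26), Scd2 (0.18) and Acsl3 (0.17). The progenitor marker Lgr5 (0.66) and mt-Co1 (0.15) complete the higher side.

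Lower differences were found for the lipid genes Cpt1a (-0.8), Pdk4 (-0.51), Plin2 (-0.24) and Lpin1 (-0.21), for the cell cycle genes Cdc6 (-0.37), Ccne2 (-0.38) and Ect2 (-0.14), and for Gadd45g (-0.39), Sqstm1 (-0.38), Hspb1 (-0.23) and Ptpn21 (-0.19). Apln (-0.75), Mirt1 (-0.41), Slfn9 (-0.38) and the progenitor markers Krt7 (-0.23) and Cd24a (-0.16) also had lower differences. The lowest were Gsta1 (-1.68), Aqp9 (-1.64), Ednra (-1.55), Fmnl1 (-1.44) and Tex15 (-1.32). Aqp9, a glycerol channel, stood at 637 in KO control and 2.48 in WT control, so its fold changes start from very different levels. Gsta1, with near-identical paralogs, stood at 664 and 12.01, Fmnl1 at 732 and 14.9, and Tex15 at 143 and 0.698. Ednra had 9 reads over the KO control and 1 over the KO palmitate libraries, a ratio of 0.0995 with a 95% counting interval of 0.00227 to 0.718. Adm2 had 12 and 70 reads in KO and a mean of 103 in WT control.

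Some of these calls were lost when 1 library was left out, for several genes whichever of many libraries it was. The log2 differences that then remained are given in brackets. The call was lost for Adm2 without KO control library 2 or KO palmitate library 3 or 4 (2.12 to 2.23), for Apln without WT palmitate library 4 (-0.67) and for Acsl3 without KO control library 3, KO palmitate library 4 or WT palmitate library 2 (0.14 to 0.16). It was lost for Ect2 (-0.14 to -0.12) and Ptpn21 (-0.19 to -0.15) without any of 7 libraries. For Lgr5 it was lost without any of 11 (0.53 to 0.68), and for Lpin1 (-0.21 to -0.17) and Tex15 (-1.35 to -1.11) without any of 12. Other settings ended a call as well. The Ednra difference was not called with a pseudocount of 5 (-0.53, adjusted p = 0.122) or by DESeq2 (adjusted p = 0.0542), and its adjusted p ranged from 0.000983 to 0.122 over the alternatives. Tex15 was not called by DESeq2 (adjusted p = 0.252), by edgeR (0.215), after quantile normalization (0.102), without the filter (0.0682) or with the replicate block (0.0614). Lgr5 was not called by DESeq2 (adjusted p = 0.0822), by edgeR (0.0608) or without the filter (0.0776). The mt-Co1 difference was not called after quantile normalization (0.10, adjusted p = 0.607) or without the filter (adjusted p = 0.0654), and that of Hspb1 not with the replicate block (adjusted p = 0.0576). Lpin1, Ect2 and Ptpn21 were not called without the filter, Ptpn21 and Acsl3 not after quantile normalization, and Acsl3 not after rescaling to the same total.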

How the results depend on the processing

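Of 7410 values recomputed under alternatives, 7167 kept their direction and side of the threshold or moved by less than the set margin, 107 lost a call, 43 gained a call, 93 moved further and 0 reversed. Of the 2500 values of single genes in the KO response, 2459 kept direction and call. Leaving out 1 library gave 5245 to 6248 calls for the KO response, 5004 to 5951 for WT and 1187 to 1784 for the difference, and the other alternatives 5452 to 6027, 5202 to 6231 and 1147 to 1689. With a replicate block, though the numbers did not pair the samples, the KO response had 2870 genes higher and 3145 lower and the difference 657 and 898. After rescaling to the same total the KO split was 3274 higher and 2726 lower. All counts over all genes stayed within 1.5 times. In the KO response Ptpn1 was not called from the 8 KO libraries alone (adjusted p = 0.0515, range 0.000607 to 0.0515). Hspa1a was not called without KO control library 3 or 4 or KO palmitate library 2, 3 or 4 (0.64 to 0.68), Slc27a1 without KO control library 1 (0.19), and Acta2 without KO control library 1 or 3 or KO palmitate library 2 or 3 (-0.41 to -0.34). Tagln and Acta2 were not called by edgeR, and Fmnl1 was not called without any of 11 libraries (-0.37 to -0.32). The cause was not tested. Low genes limit the precision: below a mean of 50 normalized counts 12.1% of genes were called, with a median absolute change of 0.81, and at 5000 or more 65.4%, with 0.15.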

Other observations

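Families outside the lists were examined after the values were seen and are described without a test of the family. Over all genes tested 18.7% were higher and 20.4% lower, and none of these counts is read as particular to its family. Cytosolic ribosomal protein genes fell together by small amounts in KO cells, 58 of 81 lower and 0 higher (median -0.10), and in WT 75 of 81 were lower. Of 37 proteasome subunit genes 24 fell and 1 rose (median -0.09), and of 54 translation initiation factor genes 25 fell and 7 rose. Subunits of respiratory complex I mostly did not pass the test, with 1 higher and 2 lower of 37. In the mitochondrial ribosome 6 of 78 rose and 18 fell. Zinc finger genes named Zfp were higher for 89 and lower for 18 of 352, and solute carriers higher for 65 and lower for 36 of 216. Among highly expressed genes, with a mean of at least 5000, 205 of 1129 rose and 533 fell. Processed pseudogenes were lower for 54 (7.89%) and higher for 7 of 684.

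Circadian clock genes rose for 10 and fell for 1 of 17 tested. Ciart, a repressor of the clock, stood at 50.5 ± 6.34 normalized counts in KO control and 143 ± 14.9 after palmitate (SD, n = 4 each). This was a change of 1.49 ± 0.12 (log2, SE, limma adjusted p = 1.64e-10), and at 1.33 in WT. Dbp (0.36) and Nr1d1 (0.30) rose as well, and Per2 and Cry1 were not called. Beside Areg, the EGF receptor ligands Ereg (1.15) and Btc (0.93) rose, while the receptor Egfr fell by 0.39. In the plasminogen system the urokinase Plau (-1.04) and its receptor Plaur (-0.38) fell and the tissue activator Plat rose by 0.49.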
